A study of Mus musculus with 12 samples.

Results

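The response of mast cells to 4 h of IgE and antigen was followed here in cells whose Mettl3 gene had been edited. Members were chosen by the sample labels: the modified gene Mettl3, with or without stimulation, replicates 1, 2 and 3. That gave 6 of the 12 samples, 3 stimulated and 3 unstimulated, and the other 6 were c-Kit-edited cells under the same conditions. Mettl3 is the catalytic subunit of the complex that writes N6-methyladenosine in mRNA, and the study asked what its loss does to mast cells.

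Whole bone marrow of C57BL/6 mice aged 6 to 8 weeks had been cultured for at least 4 weeks with interleukin-3, which yields mast cells. These were then transfected with Cas9, guide RNAs against Mettl3 and a repair template that inserts a ZsGreen reporter with a stop and a polyadenylation signal. Cells with high ZsGreen were sorted, and one portion was left resting while another received IgE against dinitrophenyl together with its antigen, dinitrophenylated human serum albumin. The edited control went through the same steps with guides against Kit, so no group of unedited cells was on the panel. The 3 replicates were independent biological ones. Loss of Mettl3 mRNA could not be checked in these counts because the panel carries no Mettl3 probe.

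The guide pair is shown because it defines the genotype of all 6 samples. In the mouse genome GRCm39, Mettl3 lies on the minus strand at chr14:52531551-52542608. The first guide matches chr14:52542420-52542439 on the minus strand, inside the coding part of exon 1. The second guide matches chr14:52542216-52542235 on the plus strand, in the first intron. Each had 1 perfect site on chromosome 14, the only chromosome searched. Sequences run 5′ to 3′, and the capitals are the adjacent genomic NGG motif that Cas9 requires, which is not part of the guide.
crRNA 2-HDR: ggacacgtggagctctatccAGG
crRNA 3-HDR: gatggggtaaccaacaatcgAGG

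Transcripts were counted with the nCounter Myeloid Innate Immunity Panel, which hybridizes a barcoded probe pair to each target in 40 ng of RNA and counts single barcodes without amplification. Endogenous probes of unstimulated replicates 1, 2 and 3 received 618014, 571089 and 726601 counts, and those of the stimulated replicates 737910, 677499 and 597937. Negative control probes, which have no target, averaged between 15.1 and 22.8 counts per library, so genes near 20 counts were not separable from background. The authors deposited raw counts. Values below are these counts scaled so that the 20 housekeeping probes had the same geometric mean in every library, and they are listed in the order of replicates 1, 2 and 3. Testing was limited to the 545 of 734 endogenous probes that reached 20 counts in 3 or more of all 12 libraries. Changes are log2 fold changes of stimulated over unstimulated cells with their SE (n = 3 libraries a group), from edgeR's quasi-likelihood test with p-values adjusted by Benjamini-Hochberg over the 545 genes. A gene was called risen or fallen at an adjusted p under 0.05.

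The mast cell label was checked against marker genes. All 11 mast cell markers on the panel passed the count filter. Their summed level was 368640, 504071 and 399468 in unstimulated cells and 165871, 258160 and 176573 after stimulation. Carboxypeptidase Cpa3 was the most abundant of them. Without it the sums were 226570, 290108 and 169732 before stimulation and 119621, 175514 and 101902 after it. The sums of other lineages stood near the background of their probes. For 13 macrophage markers they lay between 171 and 276 in the 6 libraries, and Cd14, C1qc, Siglec1 and Mpeg1 stayed under 20 raw counts in all 6. Sums for the 9 neutrophil markers ran from 102 to 147, for the 9 dendritic cell markers from 127 to 176, and for the 8 lymphocyte markers from 124 to 240. C1qa led the macrophage list, Mmp8 the neutrophil list, H2-Eb1 the dendritic list and Nkg7 the lymphocyte list, and none of those 4 lists had a called member, although 5 alternatives (TMM scaling, unmoderated limma, no filter and the replicate block with and without stimulated replicate 3) called 1 member each, Nkg7 with the block. Nkg7 stood at 118 in stimulated replicate 3 and at 41.8 or less in the other libraries. In that library other lymphocyte genes, picked after their values were seen, were highest too. Cd27 had 60 raw counts there against 10 to 15 in the other 5, Lta 43 against 7 to 12 and Klrk1 28 against 11 to 17, while Icos, Gzma and Ctla4 were under 20 in all 6. Among the c-Kit-edited libraries, stimulated replicate 3 also had the most Lta, 78 raw counts against 7 to 13. It had the most Cd27 too, 39 against 5 to 14, while Klrk1 was at 13 against 8 to 16. The part of these lymphocyte genes in the results was not tested. The 6 eosinophil markers summed to between 68.5 and 194, and Siglecf, the only one that passed the filter, is treated with the inhibitory receptors below.

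Mast cells hold IgE on the high-affinity receptor FcεRI, and antigen that crosslinks it starts a cascade through Lyn, Syk and LAT to calcium, MAP kinases, NFAT and NF-κB. Stored histamine and proteases are released within minutes, lipid mediators follow, and cytokine and chemokine genes are then transcribed over hours. Inhibitors induced by the same signals limit the response.

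At 4 h, 178 of the 545 tested genes were called (32.7%). Of these, 120 rose (22% of tested genes) and 58 fell (10.6%), while 367 did not pass the test. The median log2 fold change was 2.15 for the risen genes and -1.39 for the fallen genes, against 0.02 for all tested genes. Among the risen genes 109 did so by at least 2-fold, 38 by at least 8-fold and 13 by at least 32-fold. Among the fallen genes 48 reached 2-fold and 4 reached 8-fold. Every risen gene was higher in 3 of 3 same-numbered pairs. The calls were made from these same libraries, so the agreement of the pairs is not separate evidence. Of the fallen genes 57 were lower in 3 of 3 pairs, the exception being the immunoproteasome subunit Psmb9, at 42.5 and 43 in the pair numbered 3. In 109 risen and 55 fallen genes the stimulated and unstimulated libraries did not overlap, where 143 tested genes (26.2%) were separated upward and 96 (17.6%) downward. For 16 risen genes all 3 unstimulated libraries had fewer than 20 raw counts, so the size of their fold change depends on background. Of the called genes named below, Mapk13, Lpl, Adamts9 and Ndc80 were not called with counts under 20 set to 20, nor Clec7a, Isg15, Usp18, Lpl and 2810417H13Rik with background subtraction.

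The rise was larger in number than the fall under each scaling tried, but the balance depended on it. Of the called genes 67.4% rose here, against 55.2% with trimmed-mean (TMM) scaling, 57.1% with DESeq2 and its own size factors, and 85.2% when libraries were scaled by the positive controls. Relative to the housekeeping scale the median of all tested genes moved by -0.16 with TMM, -0.11 with DESeq2, 0.13 with positive controls and 0.15 with the 16 housekeeping probes of at least 100 counts. Housekeeping genes were not level themselves: Alas1, of haem synthesis, stood 1.45 higher after stimulation on the log2 scale, and the tubulin Tubb5 0.81 lower. Among single libraries, leaving out stimulated replicate 1 gave 28 fallen genes in place of 58. Of the 178 called genes, 72 lost their call without at least 1 of the 6 libraries, and 114 were called under all of TMM, positive control, total count and restricted housekeeping scaling. All 178 kept their direction under every alternative run. A model blocked on the replicate number called 223 genes, including 177 of the 178.

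**Figure D1:**
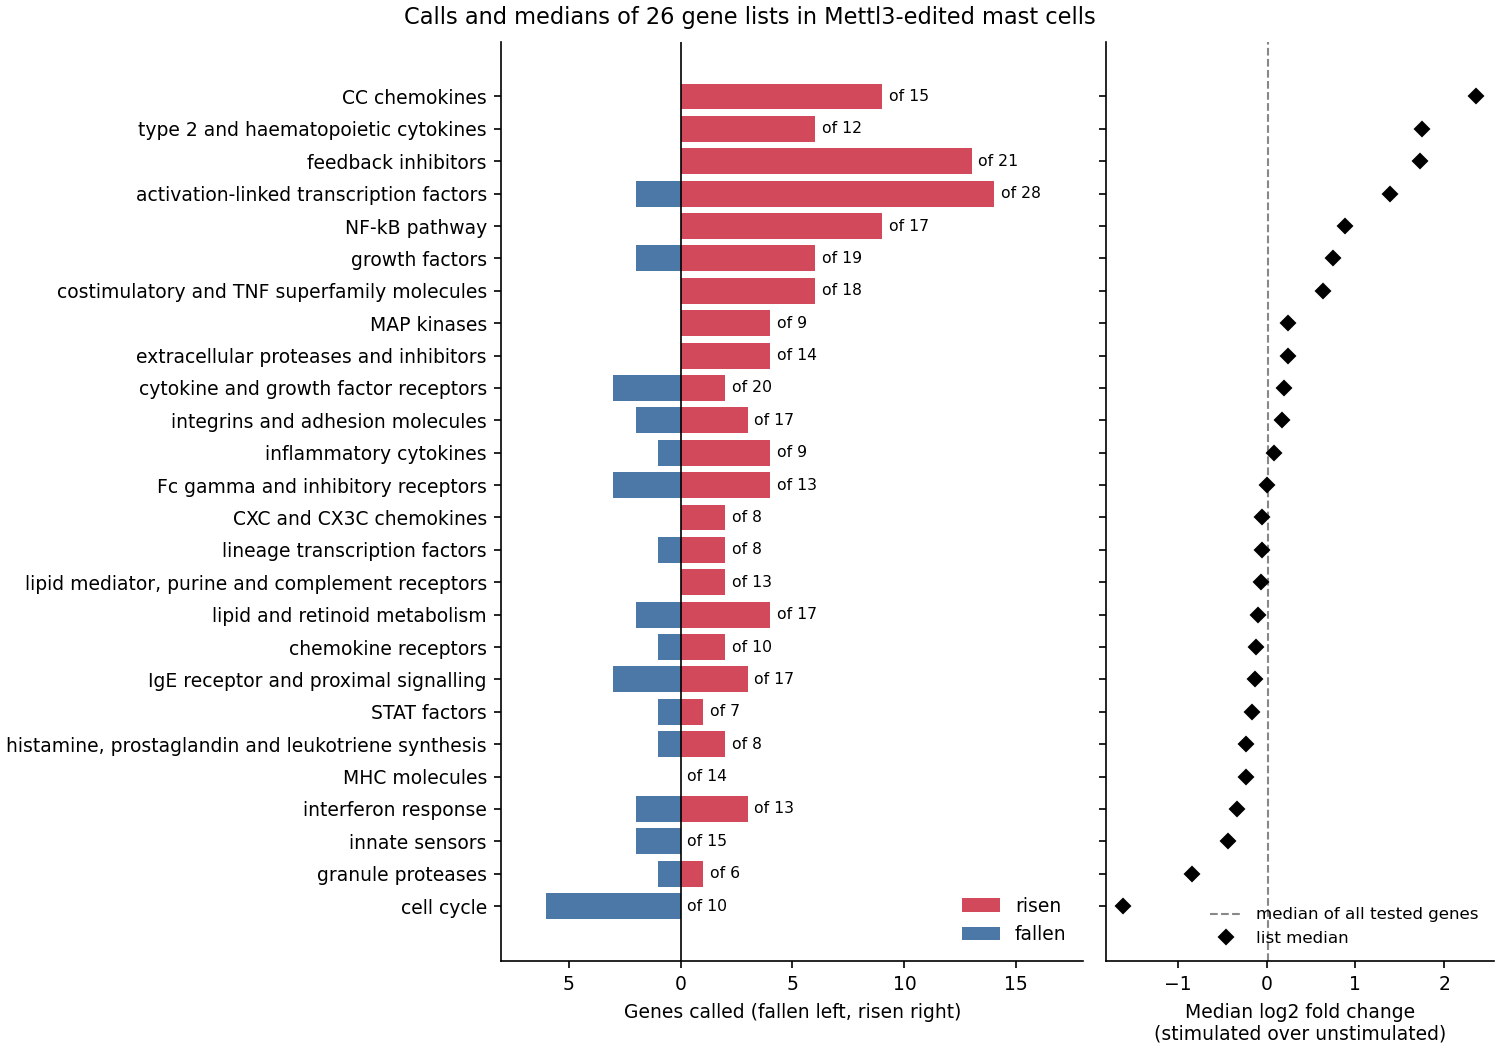
Number of called genes (left, bars, risen to the right and fallen to the left, with the number tested) and median log2 fold change of stimulated over unstimulated cells (right, diamonds) for 26 functional gene lists in Mettl3-edited mast cells, 3 libraries a group. The dashed line is the median of all tested genes, 0.02; CC chemokines have the highest median, 2.36, and cell cycle genes the lowest, -1.62.

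Cytokines of type 2 immunity and blood cell growth included the gene with the largest rise, Csf2. Of 12 tested members of that list 6 rose, 0 fell and 6 were not called, with a list median of 1.76. Among all tested genes 22% rose and 10.6% fell. Wherever a list below has 0 members called in a direction, edgeR had at most 3 members there at an unadjusted p under 0.05, DESeq2 called at most 3 and limma with moderation 0. Csf2, which encodes GM-CSF, a growth factor of granulocytes and macrophages, had 5.07, 86.7 and 6.94 counts in unstimulated cells and 5456, 8444 and 1407 in stimulated cells. Every stimulated library was more than 10 times above the highest unstimulated one, and replicate 2 was the highest library on either side. Its log2 fold change of 7.33 ± 1.29 was the largest of all tested genes in the main fit (adjusted p = 0.00128). Unstimulated replicates 1 and 3 lay under the negative control means, so its size depends on background and on replicate 2. With counts under 20 set to 20 it was 6.97, and with the replicate block Ccl3 had the larger value. Il3, a growth factor of mast cells themselves, went from 19.3, 89.5 and 17.4 counts to 2428, 4048 and 920. Here too the groups were far apart and stimulated replicate 3 was the lowest of its group, with a log2 fold change of 5.90 ± 0.84 (adjusted p = 0.000492). Il13, which drives mucus and IgE class switching, moved from 74.1, 211 and 87.6 counts to 11154, 9363 and 2463.

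The remaining risen members covered T cell and macrophage growth factors. Il4, the other main type 2 cytokine, counted 167, 318 and 189 before and 1142, 662 and 908 after stimulation. Its groups did not overlap and the rise was smaller, 2.01 ± 0.46 (adjusted p = 0.00612). For Il2, the T cell growth factor, 17.2, 32.2 and 11.3 counts became 694, 866 and 110. Unstimulated Il2 was at background in replicates 1 and 3, and stimulated replicate 3 was again the lowest of its group (log2 fold change 4.81 ± 0.72, adjusted p = 0.000605). Csf1, the macrophage growth factor, began at 535, 1202 and 154 counts and reached 5511, 5569 and 2746, a log2 fold change of 2.87 ± 0.70 (adjusted p = 0.00889). Il9 and Lif were not called. Il9 had 18.3, 19.6 and 13 counts before and 19.8, 61.5 and 43.9 after stimulation. Lif had 354, 253 and 379 counts and then 1758, 707 and 327, so that its replicate 3 was no higher with stimulation than without. Without stimulated replicate 3 Lif had an adjusted p of 0.0464, over alternatives that gave 0.0382 to 0.532, and without stimulated replicate 1 its log2 fold change was 0.65. Il5, Il10, Il22 and Il33 did not pass the count filter.

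Il4 and Il13 lie side by side on chromosome 11 in GRCm39, at chr11:53493809-53509496 and chr11:53522151-53525529. Csf2 (chr11:54138097-54140493) and Il3 (chr11:54156129-54158103) follow on the same chromosome, and all 4 rose. Irf1 (chr11:53660812-53669200), between Il13 and Csf2, was not called (adjusted p = 0.207, over alternatives from 0.0944 to 0.769).

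Inflammatory cytokines gave 4 risen and 1 fallen gene of 9 tested, beside 22% risen and 10.6% fallen of all tested genes. The fallen share and the list median of 0.08 were close to those of all tested genes. Il1a and Il1b, the interleukin-1 ligands, started near background. Il1a counted 6.09, 14 and 14.8 in unstimulated and 336, 1164 and 723 in stimulated cells. Il1b rose from 27.4, 40.6 and 37.3 to 462, 580 and 997. For both genes the stimulated libraries were all at least 10 times above the unstimulated ones, and unlike Csf2 and Il3 neither was lowest in stimulated replicate 3 (log2 fold changes 5.98 ± 0.80 and 4.27 ± 0.56, adjusted p = 0.000321 and 0.000285). Tnf, an early mediator that recruits neutrophils, varied more between replicates than the other called members of this list. Its counts were 48.7, 92.3 and 25.2 before and 8114, 3382 and 324 after stimulation. Even its lowest stimulated library was above the highest unstimulated one. Il6, which acts on B cells and the acute phase, had 668, 1246 and 635 counts and then 7585, 12382 and 2699. Il15, a growth factor of natural killer and memory T cells, fell. Its 134, 144 and 80.7 counts in unstimulated cells became 9.91, 13.5 and 13.2, at the level of the negative controls, for a log2 fold change of -3.28 ± 0.48 (adjusted p = 0.000511).

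**Figure D2:**
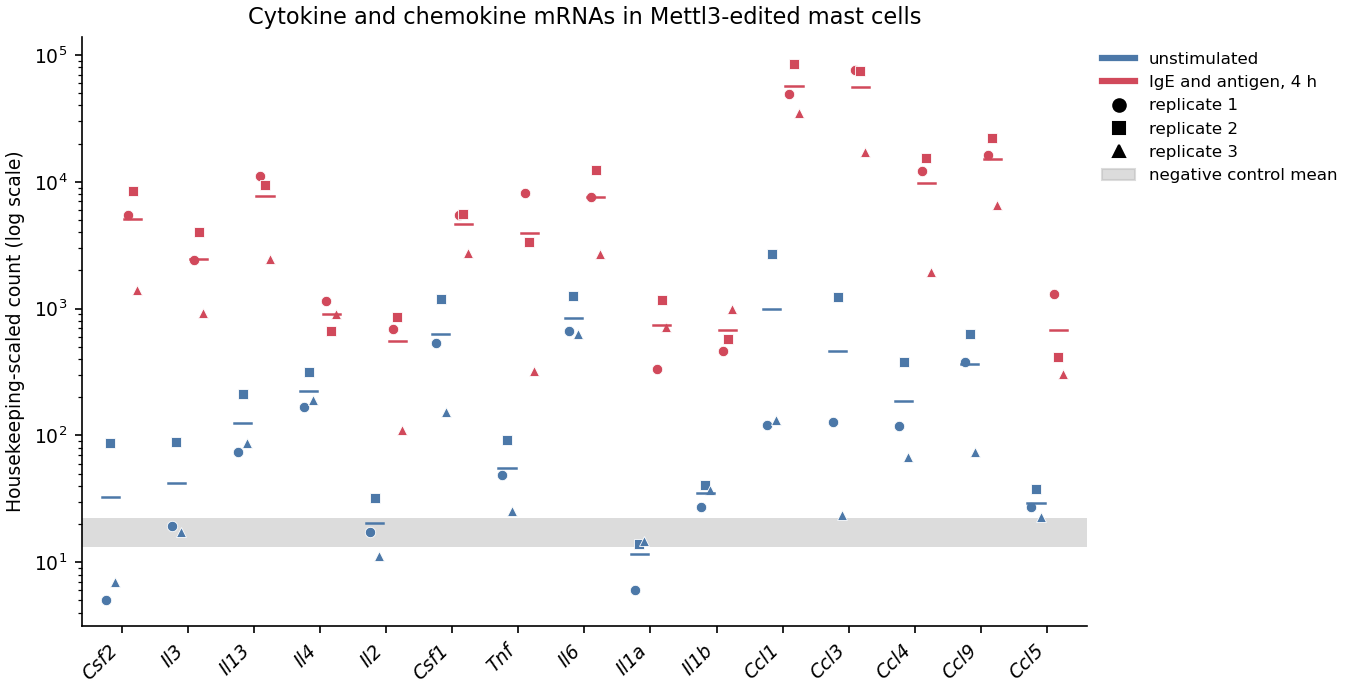
Housekeeping-scaled counts (log scale) of 15 cytokine and chemokine mRNAs in each library of Mettl3-edited mast cells, blue unstimulated and red after 4 h of IgE and antigen, with a symbol for each replicate and a bar at the mean of 3. The grey band spans the negative control means; no gene has a stimulated library below its highest unstimulated one, and stimulated Tnf ranges from 324 to 8114.

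CC chemokines, which attract leukocytes, held the highest list median, 2.36, with 9 of 15 tested members risen and 0 fallen. The shares of all tested genes were 22% and 10.6%. With TMM scaling 1 member fell. Ccl1, a ligand of Ccr8, counted 122, 2711 and 133 without stimulation and 49274, 85571 and 34899 with it. The high count of unstimulated replicate 2 weighed on its log2 fold change, which was 5.84 ± 1.19 with all libraries (adjusted p = 0.00344) and 8.79 without that library. Ccl3, an attractant of macrophages and T cells, went from 127, 1244 and 23.4 counts to 75765, 75210 and 17324. It was again unstimulated replicate 2 that was highest at rest, and the log2 fold change was 6.92 ± 1.44 (adjusted p = 0.00359) and 9.55 without that library. The same pair of probes took a large share of each stimulated library: Ccl3 went from between 0.0037% and 0.156% of endogenous counts to between 3.5% and 11.4%, and Ccl1 to between 7.05% and 10.3%.

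Further chemokines of the list rose from lower counts. Ccl4, a relative of Ccl3, had 118, 379 and 67.7 counts and then 12270, 15271 and 1961. Ccl9, a macrophage and dendritic cell attractant of mice, had 380, 635 and 74.6 counts at rest and 16252, 22226 and 6511 after stimulation. Both were lowest in replicate 3 in either state, with log2 fold changes of 5.71 ± 0.83 and 5.37 ± 0.84 (adjusted p = 0.000512 and 0.000648). Ccl5, a T cell and eosinophil attractant, rose from 27.4, 37.8 and 22.6 counts to 1314, 412 and 304. Ccl24, an eosinophil attractant that signals through Ccr3, rose from 27.4, 40.6 and 31.2 to 124, 151 and 190. Neither gene's groups overlapped (log2 fold changes 4.54 ± 0.70 and 2.24 ± 0.35, adjusted p = 0.000648 and 0.000656). Ccl2, the monocyte attractant, was abundant before stimulation, with 4706, 11231 and 2823 counts, and had 22291, 21730 and 8533 after it. Its groups overlapped, since unstimulated replicate 2 exceeded stimulated replicate 3, and at 1.49 ± 0.56 it was not called (adjusted p = 0.0621). With the replicate number as a block its adjusted p was 0.00336, the smallest over alternatives that reached up to 0.404, and it was 0.0169 without unstimulated replicate 2 and 0.0312 without stimulated replicate 3. Ccl3 (chr11:83538670-83540191) and Ccl4 (chr11:83553383-83555509) are neighbours on chromosome 11 in GRCm39, with Ccl9 and Ccl5 close by at chr11:83463745-83473161 and chr11:83416602-83425942. Ccl6 (chr11:83478708-83483913), between Ccl9 and Ccl3, was not called (adjusted p = 0.517, over alternatives from 0.167 to 0.9).

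CXC and CX3C chemokines had 2 of 8 tested members risen, 0 fallen and a median of -0.05, a share of 25% beside 22% of all tested genes. Cxcl14 rose from 11.2, 15.4 and 10.4 counts to 45.9, 162 and 134, and every stimulated library was above the background to which the unstimulated ones belong (log2 fold change 3.21 ± 0.58, adjusted p = 0.00152). The neutrophil attractant Cxcl2 had 22.3, 26.6 and 10.4 counts at rest and 150, 80 and 24 after stimulation, with overlap at replicate 3. Its adjusted p of 0.0172 became 0.0673 without unstimulated replicate 3 and 0.0837 without stimulated replicate 1, over alternatives from 0.00114 to 0.229.

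Among 10 tested chemokine receptors, with a median of -0.12, Ccr3 and Ccr1 rose, Cx3cr1 fell and 7 were not called, shares close to the 22% and 10.6% of all tested genes. Cx3cr1, the fractalkine receptor, showed the largest fall of all tested genes in the main fit. It had 1562, 1321 and 1774 counts in unstimulated cells and 125, 130 and 100 in stimulated cells, tight groups more than 10-fold apart (log2 fold change -3.71 ± 0.58, adjusted p = 0.000648). Over the alternatives its fall reached at most -3.94, against -6.54 for Il15 and -6.45 for Ccnb2, both at background after stimulation. Ccr3, the eotaxin receptor, counted 34.5, 42 and 16.5 and then 112, 226 and 62.1, without overlap (2.11 ± 0.48, adjusted p = 0.00612). Ccr1, one of the receptors of Ccl3 and Ccl5, went from 87.2, 158 and 232 to 429, 330 and 405, and lost its call under positive control scaling (adjusted p = 0.0565, over alternatives from 0.00583 to 0.141).

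Of 13 tested receptors for lipid mediators, purines and complement 2 rose (15%, beside 22% of all tested genes) and 0 fell, with a list median of -0.06. C5ar1, the receptor of the complement fragment C5a, counted 68, 280 and 268 before stimulation and 2692, 5310 and 5649 after it. The lowest stimulated library was over 9 times the highest unstimulated one, and the pairs numbered 1, 2 and 3 all moved upward (4.47 ± 0.76, adjusted p = 0.00108). Adora2a, a cAMP-raising adenosine receptor, rose from 69, 60.2 and 46 to 134, 244 and 142 (1.57 ± 0.33, adjusted p = 0.00359). With the replicate block 3 members of this list fell as well, with TMM scaling 2, and without unstimulated replicate 3 1 did.

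Cytokine and growth factor receptors gave 2 risen and 3 fallen genes of 20 tested (10% and 15%, beside 22% and 10.6% of all tested genes), with a median of 0.20. The fallen members numbered 1 with positive control scaling and 5 with TMM scaling. Il4ra, the subunit through which both IL-4 and IL-13 signal, fell from 2997, 2167 and 1897 counts to 695, 1002 and 1059. Its ligands had risen in the same libraries, and the receptor's groups did not overlap (-1.36 ± 0.25, adjusted p = 0.00178). The interferon receptor chain Ifnar2 fell by 0.95 ± 0.26 (adjusted p = 0.0142) and the IL-3 receptor chain Il3ra by 0.97 ± 0.33 (adjusted p = 0.0397). Il21r and the IL-10 receptor chain Il10ra rose by 1.84 ± 0.58 and 1.03 ± 0.36 (adjusted p = 0.0288 and 0.0429). Il21r had 21.3, 25.2 and 17.4 counts and then 44.1, 38.1 and 144, and its log2 fold change was 0.96 without stimulated replicate 3. That library also had the most Nkg7, Cd27 and Lta of the 6, whose part in this rise was not tested. The calls of Ifnar2, Il3ra, Il21r and Il10ra rested on single libraries: neither rise was called without unstimulated replicate 1, 2 or 3, Il10ra was not called without stimulated replicate 1, 2 or 3, nor Il21r without stimulated replicate 3, and 1 of the 3 falls was called without unstimulated replicate 2 or stimulated replicate 1. Il3ra was not called without unstimulated or stimulated replicate 3 either. Il1rl1, the IL-33 receptor, was the most abundant member, with 29640, 32578 and 22195 counts before and 37596, 50846 and 21650 after stimulation, and was not called (adjusted p = 0.423). Kit, the stem cell factor receptor that marks mast cells, had 4057, 2533 and 2456 counts and then 1845, 1771 and 1550. Its groups did not overlap, yet at -0.81 ± 0.32 it was not called (adjusted p = 0.0727), while TMM scaling gave 0.0223 and DESeq2 0.00247 over alternatives from 0.00247 to 0.405.

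Growth factors for tissue cells had 6 risen (32%) and 2 fallen (11%) members of 19 tested, beside 22% and 10.6% of all tested genes, and a median of 0.75. Hbegf, a ligand of the EGF receptor, counted 96.4, 116 and 75.5 at rest and 1494, 1433 and 379 after stimulation. Pdgfa, a mitogen of fibroblasts, had 115, 208 and 80.7 counts and then 536, 1379 and 738. Both were separated without overlap (log2 fold changes 3.52 ± 0.52 and 2.72 ± 0.57, adjusted p = 0.000549 and 0.00359). Fgf2 rose from 37.5, 57.4 and 29.5 to 110, 129 and 127 (1.57 ± 0.31, adjusted p = 0.00271). Areg, another EGF receptor ligand, had 17.2, 25.2 and 10.4 counts and then 144, 118 and 19.9. Its replicate 3 hardly left background, and the log2 fold change of 2.44 ± 0.62 (adjusted p = 0.0106) rested on replicates 1 and 2. The vessel-stabilizing ligand Angpt1 fell from 325, 260 and 416 counts to 105, 32 and 117 (-1.97 ± 0.52, adjusted p = 0.0131), a call that positive control scaling ended (adjusted p = 0.0654, over alternatives from 0.000466 to 0.0933). Kitl, which encodes stem cell factor, fell by 1.06 ± 0.33 (adjusted p = 0.0272). It was not called without unstimulated replicate 2 or 3 or without stimulated replicate 1 or 3, where adjusted p lay at 0.0807, 0.0597, 0.114 and 0.0702, over alternatives from 0.000362 to 0.179.

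Costimulatory and TNF superfamily genes, through which mast cells can act on lymphocytes, had 6 risen, 0 fallen and 12 uncalled members of 18 tested, with a median of 0.64. That is 33% risen, beside 22% of all tested genes. Pdcd1lg2 encodes PD-L2, a ligand of the inhibitory receptor PD-1. It had 35.5, 39.2 and 26 counts in unstimulated and 431, 890 and 469 in stimulated cells, a separation of over 10-fold (4.15 ± 0.45, adjusted p = 0.000123). Tnfsf4, or OX40 ligand, which costimulates T cells, went from 64.9, 68.5 and 85.9 to 408, 444 and 663. Replicate 3 was the highest of both of its groups, and the rise was 2.78 ± 0.36 (adjusted p = 0.000274). Vsir, which encodes the inhibitory ligand VISTA, rose from 11.2, 26.6 and 6.07 to 116, 130 and 126 (adjusted p = 0.000605), and the death receptor Fas from 21.3, 32.2 and 20.8 to 114, 201 and 121 (adjusted p = 0.00104). Unstimulated Vsir lay at or near background, so the size of its fold change depends on it. With the replicate block 8 members rose and 1 fell, and TMM scaling gave 2 fallen members. Without unstimulated replicate 3 or stimulated replicate 2, 1 member fell.

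Transcription factors linked to activation were a list in which 14 of 28 tested members rose and 2 fell, with a median of 1.39. For all tested genes the shares were 22% risen and 10.6% fallen. Nfil3, a basic leucine zipper factor, counted 70, 123 and 87.6 and then 853, 1208 and 925. Ets1 rose from 41.6, 51.8 and 54.7 to 433, 395 and 262, and Egr2, an immediate early zinc finger factor, from 15.2, 28 and 13.9 to 373, 411 and 186. In these 3 genes the groups were several-fold apart and the libraries of a group lay close together (adjusted p = 0.000103, 0.000123 and 0.000251). Unstimulated Egr2 lay near background, so the size of its fold change depends on it. Atf3, a stress-induced repressor, was far more variable, with 12.2, 19.6 and 10.4 counts at rest and 1932, 466 and 70.4 after stimulation. Its stimulated libraries differed from each other by over 20-fold, in the order seen for Tnf (log2 fold change 5.89 ± 0.96, adjusted p = 0.000796). The calcium-activated factors moved in opposite directions. Nfatc1 rose from 176, 182 and 156 to 564, 855 and 372 (1.80 ± 0.29, adjusted p = 0.000748), whereas Nfatc2 fell from 348, 319 and 218 to 77.5, 145 and 91.1 (-1.50 ± 0.34, adjusted p = 0.00633). Positive control scaling ended the call of Nfatc2 (adjusted p = 0.0547, over alternatives up to 0.0813). Id3, an inhibitor of E proteins, was the other fallen member, at -2.26 ± 0.70 (adjusted p = 0.0286). Its call was lost without any 1 of 5 libraries, all but unstimulated replicate 2. The count of risen factors was 9 without unstimulated replicate 1 and 7 without unstimulated replicate 3.

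In the list of feedback inhibitors, which gathers phosphatases, inhibitors and stress proteins, 13 of 21 tested members rose, 0 fell and 8 were not called. That stands beside 22% risen and 10.6% fallen of all tested genes, and the list median was 1.73. Without stimulated replicate 1 or 2, 9 members of the list rose. Its risen members Peli1, Nfkbia, Tnfaip3 and Nfkbiz also belong to the NF-κB list below, so these lists are not independent. Rgs16, which shortens G protein signalling, counted 20.3, 21 and 11.3 before and 527, 503 and 156 after stimulation. Gadd45b, a stress-induced regulator of MAP kinases, went from 36.5, 86.7 and 49.5 to 1025, 1336 and 430. Spry2, an inhibitor of the Ras and ERK pathway, went from 51.7, 62.9 and 42.5 to 232, 283 and 199. None of these groups overlapped (log2 fold changes 4.50 ± 0.50, 4.02 ± 0.51 and 2.18 ± 0.26, adjusted p = 0.000123, 0.000257 and 0.000229). Gem, a small GTPase that inhibits calcium channels, rose from 19.3, 15.4 and 14.8 to 642, 289 and 83.6 (4.35 ± 0.63, adjusted p = 0.000511). Dusp2, a phosphatase of MAP kinases, rose from 11.2, 14 and 9.54 to 150, 62.8 and 59.6 (2.98 ± 0.52, adjusted p = 0.00118). For Rgs16, Gem and Dusp2 the unstimulated libraries lay at or near background, so the sizes of their fold changes depend on it. That of Rgs16 ran from 4.18 to 8.31 over the alternatives.

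The NF-κB pathway, tested with 17 genes, had 9 risen and 0 fallen members, beside 22% and 10.6% of all tested genes. Its median was 0.88. Nfkbia encodes the inhibitor IκBα, a target of the factor it restrains, and had 42.6, 42 and 22.6 counts at rest and 164, 260 and 85.3 after stimulation. The groups did not overlap (2.25 ± 0.53, adjusted p = 0.00725). Peli1, a ubiquitin ligase of the pathway, rose from 110, 136 and 78.1 to 418, 484 and 259, and the kinase Ripk2 from 58.8, 50.4 and 46.9 to 198, 199 and 146 (adjusted p = 0.00117 and 0.00359). Map3k14, the kinase of the non-canonical pathway, rose from 22.3, 28 and 20.8 to 54.1, 106 and 56.3 (adjusted p = 0.00497). Nfkb1, the p50 subunit precursor, had 1031, 978 and 816 counts and then 1697, 2633 and 869, with overlap in replicate 3. It was not called (0.88 ± 0.33, adjusted p = 0.0602), and the replicate block gave 0.0398. Without stimulated replicate 3 its adjusted p was 0.00486, over alternatives from 0.00415 to 0.399, and without stimulated replicate 2 its log2 fold change was 0.45. With the replicate block 11 members of the list rose and 1 fell, and TMM scaling gave 8 risen and 2 fallen members. Positive control scaling gave 6 risen, as did leaving out stimulated replicate 2 or unstimulated replicate 3, and without stimulated replicate 1 there were 7. Of 9 tested MAP kinases and their kinases 4 rose and 0 fell, beside 22% and 10.6% of all tested genes. Their median was 0.24, and the risen ones were Map3k14, Mapk13, Map2k3 and Map2k1. Only 2 of those 4 were called without unstimulated replicate 3, without stimulated replicate 1 or with positive control scaling. Map2k3 was also not called without unstimulated replicate 1 or stimulated replicate 2, nor Map2k1 without unstimulated replicate 2. Mapk13 stood at 10.1, 9.79 and 8.68 and then at 22.5, 30.8 and 16.6, near background in both groups. With counts under 20 set to 20 its log2 fold change went from 1.26 to 0.09 (adjusted p = 0.848, the largest over alternatives from 0.00641).

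Of 17 tested genes of the receptor and its first signalling steps 3 rose and 3 fell, 18% each beside 22% and 10.6% of all tested genes, with a median of -0.13. TMM scaling gave 1 risen and 4 fallen members, and positive control scaling 1 and 2. Ms4a2, the β chain that amplifies FcεRI signals, fell from 11320, 9536 and 7172 counts to 2290, 2216 and 1632. Every stimulated library lay far below the lowest unstimulated one (-2.19 ± 0.34, adjusted p = 0.000636). Fcer1a, the IgE-binding α chain, went from 87090, 126364 and 61672 to 22505, 46251 and 20336, also without overlap (-1.63 ± 0.44, adjusted p = 0.0143). Its call depended on single libraries, with an adjusted p of 0.0516 without unstimulated replicate 2 and 0.0582 without stimulated replicate 1, over alternatives up to 0.169. Fyn, a Src family kinase that acts beside Lyn at the receptor, rose from 72, 86.7 and 83.3 to 847, 1213 and 576, groups several-fold apart (3.44 ± 0.39, adjusted p = 0.00014). Pik3cg, the G protein-coupled phosphoinositide 3-kinase subunit, fell from 771, 634 and 510 to 225, 242 and 295 (-1.33 ± 0.24, adjusted p = 0.00136), and lost its call under positive control scaling (adjusted p = 0.056, over alternatives up to 0.0578). The adaptor Lat had 693, 638 and 625 counts and then 1118, 950 and 931, and the kinase Map2k1 had 207, 166 and 161 and then 420, 279 and 311. These were small rises of 0.62 ± 0.19 and 0.92 ± 0.26 (adjusted p = 0.0286 and 0.0196). Lat was called under neither TMM scaling (adjusted p = 0.106) nor positive control scaling (0.227), over alternatives from 0.0105 to 0.227, and Map2k1 was at 0.0613 and 0.155, over alternatives from 0.0076 to 0.166. Without unstimulated replicate 2 or 3 or stimulated replicate 1 only Fyn of the 3 rises was called, and Lat was not called without unstimulated replicate 1 either (adjusted p = 0.0544).

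Of the Fc gamma receptors on the panel Fcgr2b and Fcgr3 fell, Fcgr1 was not called (adjusted p = 0.247, over alternatives from 0.0606 to 0.677) and Fcgr4 did not pass the count filter. The list of Fc gamma and inhibitory receptors also holds activating receptors and an adaptor, so it is a mixed set. Of its 13 tested genes 4 rose (31%) and 3 fell (23%), beside 22% and 10.6% of all tested genes, and the median was 0.00. TMM scaling gave 2 risen and 4 fallen members. Fcgr2b, the inhibitory IgG receptor, had 1114, 586 and 617 counts and then 117, 75.1 and 62.9. Fcgr3, the activating one, had 620, 1148 and 764 counts and then 65.8, 144 and 177. In both, every stimulated library was below every unstimulated one by a wide margin (-3.18 ± 0.44 and -2.71 ± 0.49, adjusted p = 0.000459 and 0.00143). Tyrobp, the adaptor DAP12, fell by 1.24 ± 0.32 (adjusted p = 0.0113), which became 0.0515 without stimulated replicate 1 and 0.05 without unstimulated replicate 3, over alternatives up to 0.0975. Ceacam1, an inhibitory adhesion receptor, rose from 20.3, 23.8 and 36.4 to 116, 207 and 343 (3.03 ± 0.46, adjusted p = 0.000605). Siglecf, an inhibitory lectin also used as an eosinophil marker, rose from 17.2, 19.6 and 20 to 47.7, 77.5 and 132 (2.18 ± 0.47, adjusted p = 0.00486). The other eosinophil markers, Epx, Prg2, Prg3, Ear6 and Il5ra, did not pass the count filter. Ptprc, which encodes the phosphatase CD45, and the lectin Clec7a rose by 0.70 ± 0.21 and 0.79 ± 0.27 (adjusted p = 0.0229 and 0.0404), and neither was called with TMM or positive control scaling. Nor was either called without unstimulated replicate 2 or 3 or without stimulated replicate 1 or 2, when 2 of the 4 rises held, and Clec7a was not called without either of the other 2 libraries.

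**Figure D3:**
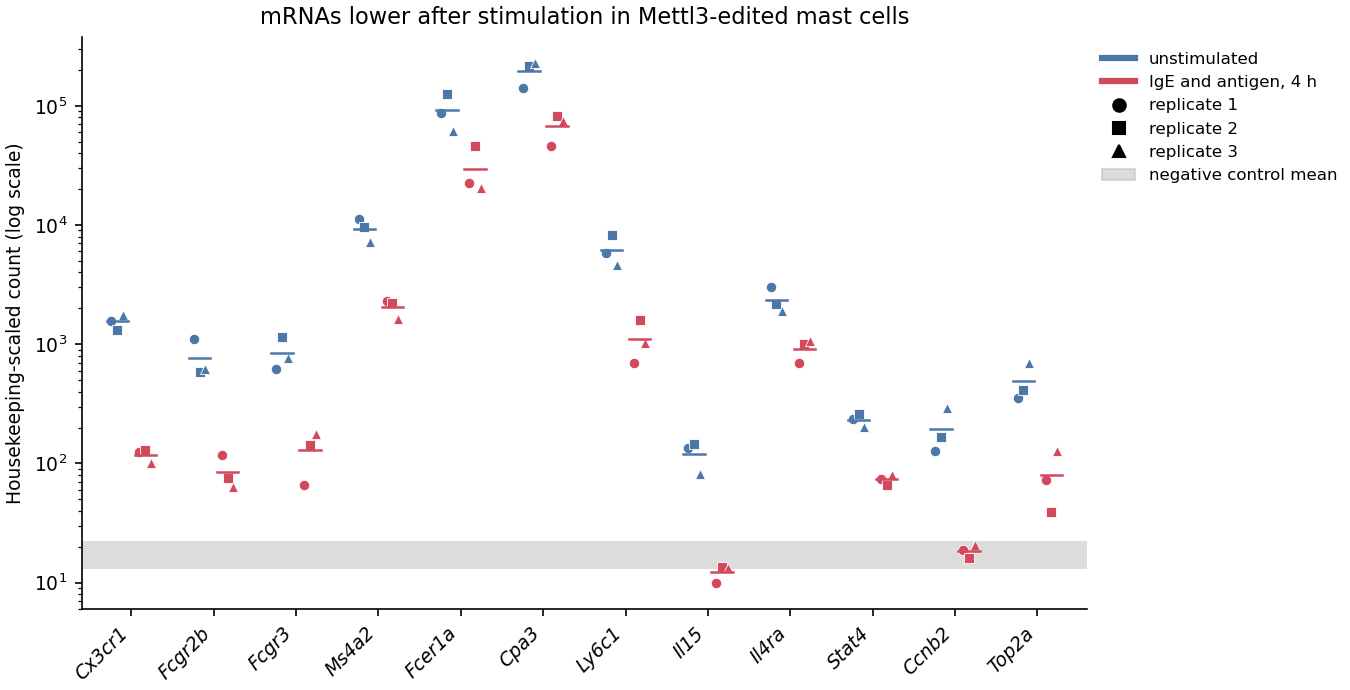
Housekeeping-scaled counts (log scale) of 12 mRNAs that fell in Mettl3-edited mast cells, blue unstimulated and red after 4 h of IgE and antigen, with a symbol for each replicate and a bar at the mean of 3 libraries. The grey band spans the negative control means; in each gene the highest stimulated library lies below the lowest unstimulated one, from Cx3cr1 at the left, with a log2 fold change of -3.71, to the cell cycle genes at the right.

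Granule proteases are the stored proteins of mast cells, and their mRNAs made up much of the unstimulated libraries. The list had 1 risen and 1 fallen gene among 6 tested, beside 22% and 10.6% of all tested genes, with a median of -0.84. Cpa3, the carboxypeptidase, took between 22.7% and 36.4% of unstimulated endogenous counts and between 6.96% and 15.1% of stimulated ones. Its scaled counts were 142070, 213962 and 229736 before and 46250, 82646 and 74671 after stimulation, without overlap (-1.52 ± 0.34, adjusted p = 0.00554). Cma1, a chymase, had 69006, 104893 and 63030 counts and then 40928, 62126 and 39192. The groups did not overlap, but at -0.74 ± 0.34 the gene was not called (adjusted p = 0.116). With the replicate block its adjusted p was 0.0119, over alternatives from 0.00184 to 0.396, and 3 members of the list fell, as they did with TMM scaling, while 2 fell without unstimulated replicate 3. Tpsb2, the tryptase, had 19013, 8902 and 8030 counts and then 10189, 7013 and 11307, which overlapped (adjusted p = 0.545). Ctsl, a lysosomal cathepsin, rose from 8.12, 9.79 and 15.6 to 63.1, 54.1 and 29.8 (adjusted p = 0.00226). Its unstimulated libraries lay at or near background. As RNA was pooled over all cells of a sample, fewer cells with a transcript and less of it per cell cannot be told apart here.

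Enzymes of histamine, prostaglandin and leukotriene synthesis had 2 risen and 1 fallen member of 8 tested (25% and 12.5%, close to the 22% and 10.6% of all tested genes), with a median of -0.23. Ptgs2, the inducible cyclooxygenase, counted 18.3, 51.8 and 7.81 before and 1365, 397 and 98.5 after stimulation. Replicate 1 was highest and replicate 3 lowest after stimulation, the order of Tnf and Atf3, and the rise was 4.62 ± 0.91 (adjusted p = 0.00269). Hdc, which makes histamine, rose from 125, 269 and 738 to 1217, 1569 and 2687. Its unstimulated libraries spread almost 6-fold, yet each pair moved upward (2.27 ± 0.67, adjusted p = 0.0223). The call of Hdc was lost without unstimulated replicate 1 (adjusted p = 0.0681), unstimulated replicate 2 (0.0762) or stimulated replicate 3 (0.0609), and with TMM scaling (0.0519), while the replicate block gave 6.95e-05 and the alternatives reached 0.17. Alox5, which starts leukotriene synthesis, fell from 11783, 8435 and 10382 to 4162, 4514 and 5417. The groups did not overlap (-1.12 ± 0.31, adjusted p = 0.0171). The adjusted p was 0.0562 without unstimulated replicate 1, and 0.0652 and 0.0517 without stimulated replicates 1 and 2. With positive control scaling it was 0.155, the largest over its alternatives. Hpgds, the prostaglandin D synthase of mast cells, had 640, 540 and 303 counts and then 280, 181 and 154. It was not called (adjusted p = 0.0748), and was with the replicate block (0.0076, over alternatives from 0.00724 to 0.335). With that block 3 members of the list fell, and without unstimulated replicate 3, 2 did.

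Cell cycle genes held the lowest median of all lists, -1.62, with 6 of 10 tested members fallen and 0 risen. Over all tested genes 10.6% fell and 22% rose. Ccnb2, a mitotic cyclin, had 128, 166 and 292 counts and then 18.9, 16 and 20.7, which is background. Top2a, the topoisomerase of dividing cells, had 357, 410 and 695 counts and then 73, 39.4 and 127. Both genes were highest in unstimulated replicate 3 and did not overlap between groups (log2 fold changes -3.39 ± 0.75 and -2.60 ± 0.76, adjusted p = 0.00533 and 0.0222). Birc5 (survivin), Kif20a, a mitotic kinesin, Ndc80, of the kinetochore, and 2810417H13Rik, a replication clamp partner, fell too (adjusted p = 0.0221, 0.0165, 0.0242 and 0.0347). Only Ccnb2 was called without unstimulated replicate 3, without stimulated replicate 1, without stimulated replicate 2 or with positive control scaling. The adjusted p of Top2a was then 0.0669, 0.0726, 0.0858 and 0.0536, over alternatives up to 0.103. Ndc80 and 2810417H13Rik were not called without unstimulated replicate 2 either. With the replicate block 8 members fell. Whether fewer cells were dividing was not tested.

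Of 8 factors that define blood lineages, median -0.06, Ikzf1 and Gata3 rose and Erg fell, again shares close to those of all tested genes. Ikzf1 (Ikaros) had 891, 596 and 654 counts and then 1478, 1542 and 1309, without overlap (1.02 ± 0.24, adjusted p = 0.00707). Erg, a factor of stem cells and endothelium, fell from 99.4, 74.1 and 70.3 to 27, 17.2 and 27.3 (-1.75 ± 0.39, adjusted p = 0.00548). Positive control scaling ended both of these calls (adjusted p = 0.104 and 0.05, over alternatives up to 0.104 and 0.0632). Gata3, a factor of type 2 lymphocytes, had 194, 137 and 55.5 counts and then 227, 345 and 536, an uneven rise of 1.52 ± 0.52 (adjusted p = 0.0422). Its highest library, stimulated replicate 3, was also the one of the 6 with the most Nkg7, Cd27 and Lta, whose part in this rise was not tested. The replicate block gave it 0.0534, it was lost with TMM scaling (0.0541) and without unstimulated replicate 2 or 3 or stimulated replicate 2 or 3 (0.0909, 0.123, 0.081 and 0.134), over alternatives from 0.0138 to 0.177. Gata2, a mast cell factor, had 5317, 4136 and 3764 counts and then 2483, 3214 and 3069, and was not called (adjusted p = 0.0548). With the replicate block it was 0.0383, over alternatives from 0.000201 to 0.54. Among 7 STAT and JAK genes, median -0.17, 1 rose and 1 fell, beside 22% and 10.6% of all tested genes. Stat4 fell from 235, 260 and 201 to 73.9, 66.4 and 79.5 (-1.66 ± 0.26, adjusted p = 0.000648). Stat5a, which transmits IL-3 signals, had 691, 438 and 348 counts and then 913, 1803 and 627. It rose by 1.18 ± 0.39 (adjusted p = 0.0365), by 0.64 without stimulated replicate 2 (adjusted p = 0.2), and was also not called without unstimulated replicate 2 or 3 or stimulated replicate 1 (0.103, 0.119 and 0.0515, over alternatives up to 0.361).

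Adhesion molecules had 3 risen and 2 fallen members of 17 tested (18% and 12%, close to the 22% and 10.6% of all tested genes), with a median of 0.18. Itgb7, an integrin chain by which mast cell progenitors home to the gut, fell from 501, 429 and 440 to 76.6, 207 and 165. Selplg, the P-selectin ligand, fell from 1116, 1455 and 950 to 221, 567 and 334. Both groups were fully separated (-1.61 ± 0.33 and -1.65 ± 0.35, adjusted p = 0.00354 and 0.00421). The fibronectin receptor chain Itga5 rose from 58.8, 56 and 57.3 to 106, 192 and 112 (adjusted p = 0.0084), and the leukocyte integrin chains Itgb2 and Itgal rose by 1.32 ± 0.33 and 0.82 ± 0.29 (adjusted p = 0.0101 and 0.0487). Positive control scaling left 0 of these 3 rises called. Without stimulated replicate 1 only Itga5 was called, and Itgal was not called either without unstimulated replicate 1 or 3 or stimulated replicate 2 or 3, where its adjusted p lay between 0.0861 and 0.142, over alternatives from 0.0185 to 0.288.

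Among 15 innate sensors and their adaptors 0 rose and 2 fell, with a median of -0.43. The fallen share, 13%, was close to the 10.6% of all tested genes. Tmem173, which encodes the DNA-sensing adaptor STING, fell from 157, 203 and 110 to 33.3, 60.3 and 32.3, without overlap (-1.91 ± 0.34, adjusted p = 0.00151). Tlr6 fell by 0.86 ± 0.26 (adjusted p = 0.026). It was not called without unstimulated replicate 2 (adjusted p = 0.102) or without stimulated replicate 1 or 3 (0.0826 and 0.0728), over alternatives up to 0.266, and without stimulated replicate 3 another member of the list rose. Of 13 tested interferon response genes, with a median of -0.33, Irf5, Isg15 and Psme2 rose (23%) and Usp18 and Psmb9 fell (15%), beside 22% and 10.6% of all tested genes. Positive control scaling gave 2 risen and 0 fallen members, and TMM scaling 2 and 3. Isg15, a ubiquitin-like protein, had 33.5, 32.2 and 8.68 counts and then 197, 57.8 and 52.1, and Usp18, which removes it from targets, had 89.3, 68.5 and 87.6 and then 25.2, 18.5 and 50.5 (adjusted p = 0.0286 and 0.0144). Without unstimulated replicate 2 the list had 0 risen genes, and without unstimulated replicate 3 or stimulated replicate 1 or 2 it had 1. Without stimulated replicate 1 or 2 it had 0 fallen genes, and without unstimulated replicate 1 or 2 it had 1. Psme2 lost its call without any 1 of the 6 libraries. Of 14 MHC genes, median -0.24, 0 were called by edgeR and 0 had an unadjusted p under 0.05. DESeq2 called 2 of them as fallen, the replicate block 1 and limma with moderation 0.

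Genes of lipid and retinoid handling had 4 risen and 2 fallen members of 17 tested and a median of -0.09. These shares, 24% and 12%, are close to the 22% and 10.6% of all tested genes, although Crabp2 and Olr1 were among the 12 largest rises. Crabp2 carries retinoic acid to its nuclear receptor. It was at background in all unstimulated libraries and at 632, 581 and 704 counts after stimulation, a narrow range. Olr1, a scavenger receptor of oxidized lipoproteins, had 22.3, 53.2 and 8.68 counts and then 1386, 1291 and 445 (5.25 ± 0.65, adjusted p = 0.000251). Insig1, which holds back sterol synthesis, rose from 164, 126 and 176 to 400, 336 and 436 (1.33 ± 0.31, adjusted p = 0.00685). The lipase Lpl rose by 1.31 ± 0.45 (adjusted p = 0.0431), and lost its call without unstimulated replicate 1 or 3 or stimulated replicate 1 or 2 (0.145, 0.147, 0.118 and 0.149, over alternatives up to 0.358). The lysosomal lipase Lipa and the thioesterase Acot11 fell by 1.45 ± 0.36 and 1.18 ± 0.30 (adjusted p = 0.0102 and 0.0111). Neither was called with positive control scaling, and Acot11 had an adjusted p of 0.0534 without stimulated replicate 1, over alternatives up to 0.154.

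Extracellular proteases and their inhibitors had 4 risen (29%) and 0 fallen members of 14 tested, beside 22% and 10.6% of all tested genes. Their median was 0.24. With the replicate block 6 members rose and 1 fell, and with DESeq2 4 rose and 1 fell. Plaur, the urokinase receptor, had 138, 206 and 79 counts and then 422, 726 and 300, without overlap (1.78 ± 0.48, adjusted p = 0.0149). Adamts9, a matrix protease, the metalloprotease inhibitor Timp3 and the granzyme inhibitor Serpinb9 rose by 1.87 ± 0.49, 1.45 ± 0.47 and 1.37 ± 0.45 (adjusted p = 0.0135, 0.0348 and 0.0352). Plaur was not called without unstimulated replicate 3 or stimulated replicate 2 (adjusted p = 0.0577 and 0.0688, over alternatives from 0.00063 to 0.105). Of the 4, 1 was called without unstimulated replicate 1 or 3, and 2 without stimulated replicate 1 or 2. Serpinb9 lost its call without any 1 of 5 libraries, all but stimulated replicate 2, and with TMM and positive control scaling (adjusted p = 0.0636 and 0.0823, over alternatives from 0.0155 to 0.111). Outside all lists, Ly6c1, a surface antigen of myeloid and endothelial cells, fell from 5846, 8206 and 4633 to 692, 1609 and 1027. Cnn2, an actin-binding calponin, fell from 342, 252 and 282 to 69.4, 67.7 and 80.3. For both, the groups were several-fold apart (-2.49 ± 0.38 and -2.01 ± 0.38, adjusted p = 0.000629 and 0.00198).

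In the risen genes the replicates had a similar order before and after stimulation. Among the 120 risen genes, stimulated replicate 3 was the lowest library of its group in 73 and stimulated replicate 2 the highest in 62. The same order was present before stimulation, where replicate 3 was lowest in 76 and replicate 2 highest in 72 of these genes. The median change of the risen genes within the pairs numbered 1, 2 and 3 was nevertheless close, at 2.14, 2.17 and 2.14. Over all 545 tested genes stimulated replicate 3 was lowest in 256 and stimulated replicate 2 highest in 260, and before stimulation replicate 3 was lowest in 343 and replicate 2 highest in 258. Of the 58 fallen genes stimulated replicate 3 was highest in 29 and lowest in 12. For 8 of the called genes named here, leaving out a single library moved the log2 fold change by more than 1. Without unstimulated replicate 2 it was higher for Csf2, Ccl1, Ccl3, Il3 and Ccl4 (6.73), where the unstimulated libraries left for Csf2 and Il3 are at background. Without stimulated replicate 1 it was lower for Tnf (5.08), Atf3 and Ptgs2. Il13, Il3, Csf2, Tnf and Il2 were lowest in stimulated replicate 3, whereas Il1b, Tnfsf4, C5ar1, Ceacam1, Siglecf and Hdc were highest in stimulated replicate 3. The 10 most abundant genes took between 64.5% and 68.3% of unstimulated and between 50.6% and 58.1% of stimulated libraries. What set the replicates apart was not tested.

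The edited control cells, tested in the same model, give the scale of these changes. In c-Kit-edited cells 66 genes rose (12.1%) and 37 fell (6.79%). Of the 120 genes risen in Mettl3-edited cells 64 also rose in the control, which is 53.3% of the former list and 97.0% of the latter. Of the 58 fallen genes 32 were shared, 55.2% and 86.5% of either list, and 0 genes were called in opposite directions. Tnfsf4 was at 2.78 ± 0.36 in Mettl3-edited and 2.89 ± 0.36 in c-Kit-edited cells, and Spry2 at 2.18 ± 0.26 and 2.12 ± 0.26. Il2 was at 4.81 ± 0.72 in Mettl3-edited and 0.83 ± 0.74 in c-Kit-edited cells, Ccr3 at 2.11 ± 0.48 and -0.63 ± 0.48, and Gem at 4.35 ± 0.63 and 1.22 ± 0.60. Unstimulated Il2 and Gem lay near background in both genotypes, so the sizes of their folds depend on it. A larger list in one genotype does not show a difference, which is the interaction of edited gene and stimulation. By edgeR 0 of 545 genes (0%) passed for that interaction, and the smallest adjusted p, 0.562, was shared by Ccr3, Il2 and Gem. At an unadjusted p under 0.05 there were 23 genes, 4.2% of those tested. All 23 had the more positive log2 change in Mettl3-edited cells, a split that became 16 against 4 with TMM scaling, 20 against 4 with DESeq2 and 20 against 3 with background subtraction. The median interaction over all tested genes was 0.11, and -0.05 with TMM scaling. After Ccr3, Il2 and Gem the smallest p belonged to Hbegf, Il3, Insig1, Timp3 and Dusp2. DESeq2 called 2 genes, Ccr3 and Il2, and limma 0 with moderation. Without stimulated Mettl3 replicate 3 edgeR called 5, which were Ccr3, Il2, Gem, Hbegf and Atf3.

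Promoters of the called genes were searched for the letters of factors that act downstream of FcεRI, and most risen promoters lacked each of them. RefSeq promoters on GRCm38.p6, from 250 bases before to 50 after the start, were matched by symbol to 419 of the 545 tested genes. Among them were 95 risen and 47 fallen ones. For a fallen gene matched through an older symbol, the promoter counted was that of another gene, Fzr1, and it held 0 matches. The NFAT core TGGAAA was present on either strand in 35 risen (36.8%) and 7 fallen promoters (14.9%), against 27.4% of the tested and 23.9% of all 27025 genes. The NF-κB sequence GGANTTTCC was found in 10 risen (10.5%) and 1 fallen promoter (2.13%), 5.97% of the tested and 1.45% of all genes. For AP-1, TGANTCA, the counts were 11 risen (11.6%) and 0 fallen, against 9.79% of the tested and 8.97% of all genes. The cAMP response element TGACGTCA was present in 3 risen (3.16%) and 1 fallen promoter (2.13%), against 2.15% of the tested and 2.03% of all genes. The EGR sequence GCGTGGGCG was in 2 risen (2.11%) and 0 fallen promoters, against 0.716% of the tested and 0.707% of all genes. A match of letters is not a measured binding site.

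The 250 bases upstream of Il13, Ccl9 and Olr1 are printed as those of the 12 largest rises whose promoters held 2 or more matches, a choice made after the matches were seen. Of the other large rises Csf2, Tnf, Il1a, Il3 and Ccl1 had 1 match each, Ccl3 and Atf3 had 0, and Crabp2 and Ccl4 had no promoter in the table. Outside those 12, 12 other risen genes, Il6, C5ar1, Gadd45b and Nfkbia among them, and 1 fallen gene had 2 or more. Cx3cr1, the largest fall in the main fit, had 0. All 3 sequences are on the minus strand of GRCm38.p6, written 5′ to 3′ in the direction of transcription, with matches in capitals. Il13 (chr11:53634703-53634952) has NFAT cores that begin at -224 and -202 from the start, another on the opposite strand at -131, and an NF-κB match at -135 that overlaps the last of them. Ccl9 (chr11:83578637-83578886) has NFAT cores at -72 and -36 around an AP-1 match at -53. Olr1 (chr6:129507166-129507415) has an NFAT core, on the opposite strand, at -101 and AP-1 at -60.
Il13: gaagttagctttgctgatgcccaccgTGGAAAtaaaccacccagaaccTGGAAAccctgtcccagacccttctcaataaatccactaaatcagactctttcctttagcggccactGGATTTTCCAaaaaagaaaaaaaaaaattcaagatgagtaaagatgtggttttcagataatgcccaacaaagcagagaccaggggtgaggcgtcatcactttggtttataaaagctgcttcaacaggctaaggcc
Ccl9: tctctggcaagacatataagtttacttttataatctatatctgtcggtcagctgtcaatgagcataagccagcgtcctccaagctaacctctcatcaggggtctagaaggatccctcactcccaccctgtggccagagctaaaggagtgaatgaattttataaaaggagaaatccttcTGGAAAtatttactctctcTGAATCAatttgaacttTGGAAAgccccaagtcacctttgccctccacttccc
Olr1: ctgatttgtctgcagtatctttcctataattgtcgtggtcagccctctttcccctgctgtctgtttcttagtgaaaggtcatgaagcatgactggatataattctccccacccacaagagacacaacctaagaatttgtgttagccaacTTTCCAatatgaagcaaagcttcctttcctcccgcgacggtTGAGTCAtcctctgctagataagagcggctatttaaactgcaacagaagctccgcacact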

How the data were processed

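The authors deposited raw barcode counts per probe, as read from the instrument and without any normalization, and the column titles matched them to samples. Members and gene lists were chosen with earlier results of these data known. The 20 housekeeping probes set the size of each library through their geometric mean. These sizes entered edgeR 4.0.16 (R 4.3.3), where a quasi-likelihood model was fitted to all 4 groups at once and p-values were adjusted by Benjamini-Hochberg over 545 genes. Alternatives used limma 3.58.1 and DESeq2 1.42.0.

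Genes were named by a rule. In each of 26 functional lists it takes up to 4 risen and 4 fallen genes with the smallest p and all 3 pairs in that direction, any member of a list of at most 12, the most abundant member and the uncalled member with the largest fold. It adds the 12 largest rises and falls with a mean of at least 50 counts, Kit, Fcer1a, Ms4a2, Tnf, Il6, Il13, Il2, Il3 and Csf2, and the 8 smallest p of the interaction. All 109 called genes that the rule names appear in the text. Of the uncalled ones 10 appear, chosen after their values were seen, as were Psmb9, Nkg7, Fcgr1, Irf1 and Ccl6, which are outside the rule. The printed promoters were chosen after their matches were seen.

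Replicate numbers come from the labels. After group means were removed, same-numbered samples of different groups correlated across genes with a mean r of 0.334 (0.136 to 0.521 over 18 pairs). The replicate number as a block was an alternative. The paper's supplementary table numbers the third stimulated Mettl3 library 5.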

Additional observations from a re-analysis of the deposited data

How the results depend on the processing

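Against 120 risen and 58 fallen genes, the authors' thresholds (unadjusted p up to 0.05 and a fold change of at least 1.5) gave 143 and 86, and the replicate block gave 141 and 82. limma without moderation, fitted to the 6 Mettl3 libraries alone, gave 44 and 24. Positive control scaling gave 18 fallen genes and DESeq2 gave 94. With libraries or whole replicates left out, the risen genes ranged from 58 to 130 and the fallen genes from 13 to 50; both lowest counts came without replicate 1. For the interaction DESeq2 gave 2 genes, the replicate block without the library numbered 5 gave 3, and leaving out libraries gave 0 to 5. Tpsb2, not called, had a log2 fold change of -0.33 with all libraries, 0.11 without replicate 1 and 0.17 without unstimulated Mettl3 replicate 1, in a range from -0.70 to 0.17. The cause of these changes was not tested. Of the 178 called genes, 40 (22.5%) were called under every alternative and all 178 kept their direction. They numbered 71 without replicate 1, 103 without replicate 2, 132 without replicate 3, 164 with TMM, 117 with positive control scaling and 158 with no filter. A robust dispersion (117 and 59) and scaling by 9 housekeeping probes that moved by less than 0.5 log2 (119 and 48) were chosen after seeing the data. Negative control means of 15.1 to 22.8 counts limit what can be said of genes near 20 counts.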
